A study of Mus musculus with 6 samples.

Results

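Myelin and oligodendrocyte transcripts were followed through 6 libraries from the injured mouse spinal cord. The set was a list of 32 gene names: proteins of the myelin sheath, enzymes of myelin lipids, lineage transcription factors, and membrane or secreted proteins of oligodendrocytes. Of these, 31 had a row in the unfiltered table of 13960 rows (13940 symbols), and Trf, the transferrin gene, had none. All 31 entered the test, and no member was removed for low values. The libraries were made from RNA that was bound to ribosomes carrying an epitope tag (RiboTag), precipitated from the site of a contusion at T8. The mice are labelled LysMCre:Rplfl/fl > CD45.1 chimera in every library. Injury sites were taken 7 days (3 libraries) or 3 days (3 libraries) after the contusion, and neither uninjured cord nor unprecipitated RNA is among the samples. LysM-Cre is active in macrophages, neutrophils and other myeloid cells, and in chimeras so written the donor usually stands before the host; the host's own cells then carry no tag. Animals are not numbered in the labels, so p-values measure only the spread between these libraries, which may be technical.

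Oligodendrocytes wrap axons of the central nervous system in myelin, a stack of membrane rich in cholesterol and galactolipids that is held together by a small set of abundant proteins. The transcription factors Olig2 and Sox10 set and hold the lineage, and Myrf switches on the genes of the mature sheath. In contused cord, oligodendrocytes die, myelin breaks up, and macrophages take up the debris. The set is therefore one of a cell type other than the one whose ribosomes were meant to be tagged.

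At 7 days 27 of the 31 transcripts were lower than at 3 days, and the other 4 were not called (limma, Benjamini-Hochberg adjusted p of 0.05 or less over all 13042 genes tested). Of all tested genes, 20.3% were called lower. The same 27 had every 7-day library below every 3-day library, against 28.6% of all tested genes. In mean FPKM, 27 were lower by 2-fold or more, a set that holds the uncalled Fa2h and not Cnp (FPKM are fragments scaled to transcript length and to the library's mapped fragments). The median log2 change of the 31 was -1.40, against -0.04 for all tested genes. Of the 31, 0 were called higher by limma, 1 was higher at an unadjusted p under 0.05 (Qdpr), and 18.8% of all tested genes were called higher. By the q-values of the authors' deposited table (0.05 or less), 29 members were lower at 7 days and 0 higher, where 20.7% of the tested genes are lower by the same rule. With 3 libraries a time, an exact permutation test reaches p = 0.1 at the lowest, and the limma calls use a spread estimated jointly with other genes. In such mixed samples, fewer cells of a type, less RNA per cell and less carry-over of untagged RNA cannot be told apart.

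**Figure D1:**
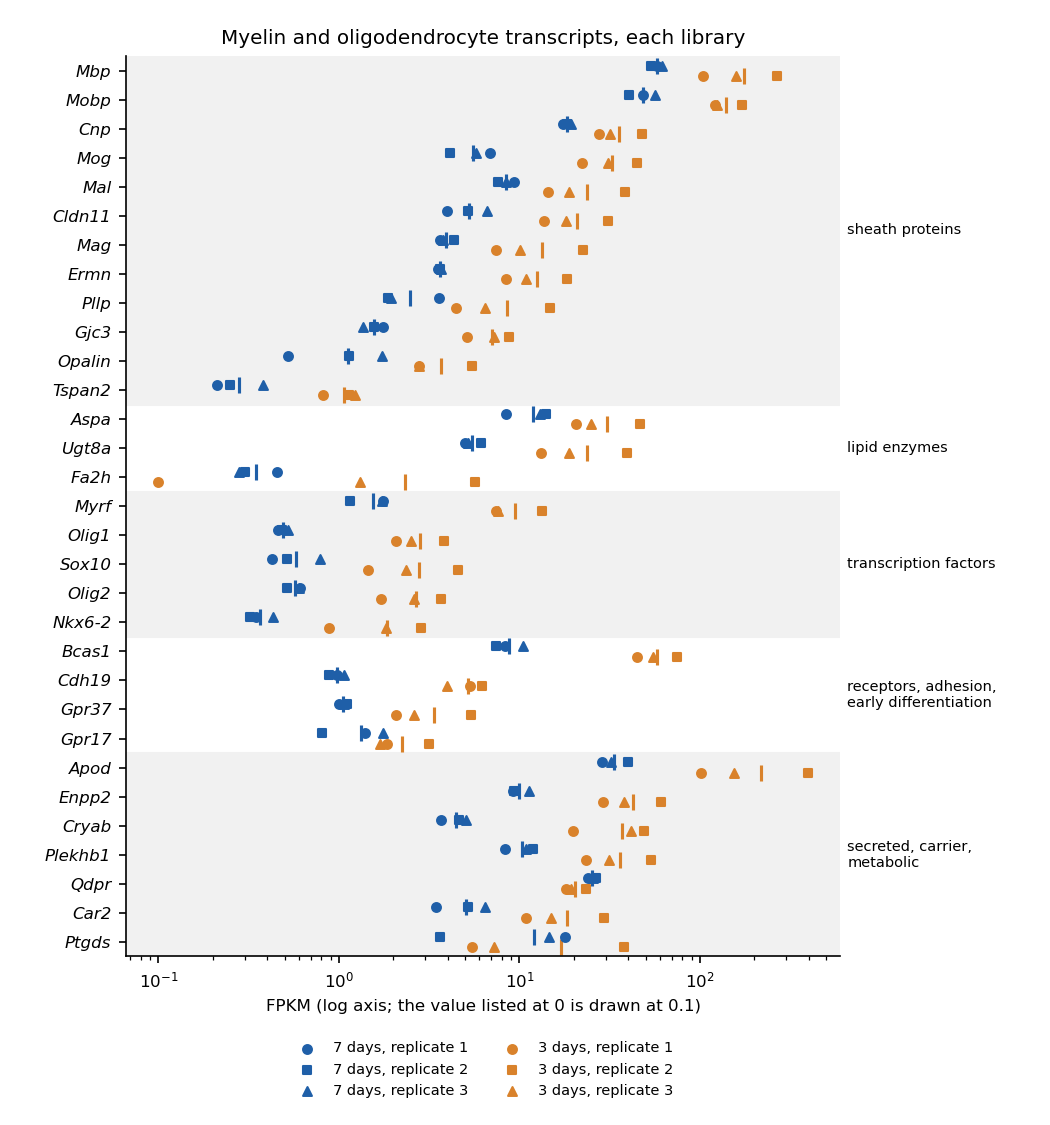
FPKM of the 31 transcripts in each library on a log axis, with genes grouped by role and ordered by their 3-day mean; blue marks are the 3 libraries at 7 days, orange marks the 3 libraries at 3 days, and vertical ticks the group means (Fa2h in 3-day replicate 1, listed at 0, is drawn at 0.1). Blue lies left of orange without overlap in 27 rows, right of it for Qdpr, and the colours overlap for Fa2h, Gpr17 and Ptgds.

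One library stood apart before any comparison of times. Of the 3-day libraries, replicate 2 held the highest value of 30 of the 31 transcripts, all but Tspan2; over all tested genes it was the highest of the 3 for 40.6%. Its values were between 1.11 (Tspan2) and 8.68 (Fa2h) times the mean of 3-day replicates 1 and 3, with a median of 1.94 over the 31 transcripts, while the median over all tested genes was 1.02. Replicate 1 was the lowest of the 3 for 28 of the 31. The coefficient of variation between the 3 libraries of a time had a median over the transcripts of 16.4% at 7 days and 42.1% at 3 days, and 28 of the 31 varied more at 3 days. Without 3-day replicate 2, 25 transcripts were lower and 1, Qdpr, was higher (adjusted p = 0.0231), and the median log2 change was -1.14. Depth in reads is unknown, because FPKM values were deposited.

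**Figure D2:**
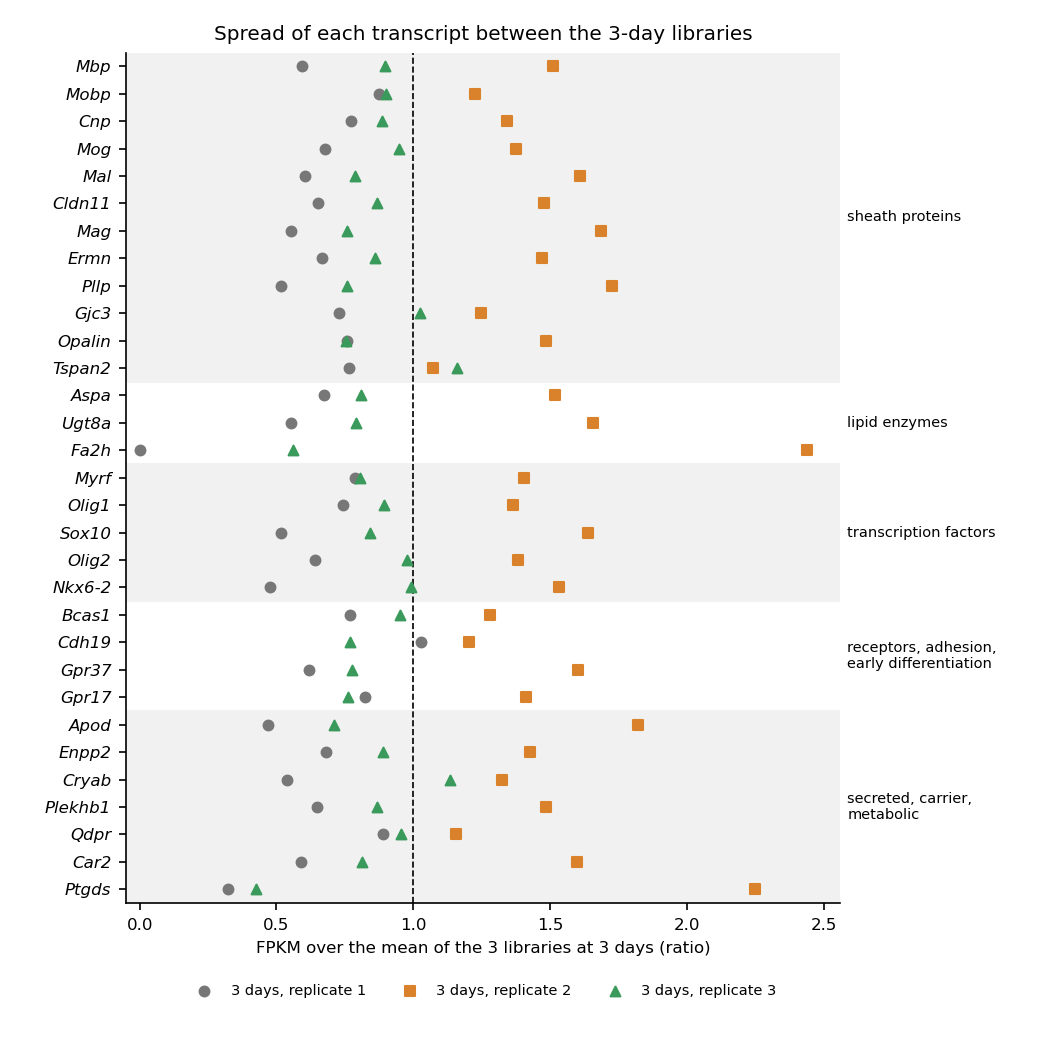
FPKM of each transcript in each 3-day library, divided by the mean of the 3-day libraries (ratio, dashed line at 1); genes are grouped by role. Replicate 2 (orange squares) is the highest mark in 30 of 31 rows and replicate 1 (grey circles) the lowest in 28.

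All 12 sheath protein transcripts fell. The most abundant was Mbp, myelin basic protein, which holds the inner faces of the compact membrane together. Mbp measured 57.7, 53.4 and 61.7 FPKM at 7 days, against 104, 267 and 158 FPKM at 3 days. It fell 3.06-fold in mean (log2 -1.49 ± 0.30, SE; adjusted p = 0.00822; mm10 chromosome 18, 82475103 to 82585912). Mobp, a small basic protein of the compact sheath, was close in level: 48.6, 40.3 and 56.1 FPKM at 7 days, against 121, 170.0 and 125 FPKM at 3 days (log2 -1.50 ± 0.17; adjusted p = 0.00108; chromosome 9, 120149495 to 120186855). For neither gene did the times overlap, and the highest 3-day value of both was in replicate 2.

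Mog, a protein of the outermost face of the sheath and a known autoantigen of demyelinating disease, had the largest decrease of the sheath group. Its levels were 6.85, 4.11 and 5.74 FPKM at 7 days, against 22.1, 44.9 and 30.9 FPKM at 3 days, a 5.87-fold fall (log2 -2.32 ± 0.27; adjusted p = 0.00109; chromosome 17, 37010752 to 37023337). Cnp, the nucleotide phosphodiesterase of non-compact myelin, had the smallest fold of the group. It measured 17.3, 18.3 and 19.3 FPKM at 7 days, against 27.6, 47.98 and 31.7 FPKM at 3 days, a 1.95-fold fall (log2 -0.89 ± 0.19; adjusted p = 0.0108; chromosome 11, 100574935 to 100621126). The ratio of Mbp to Mog in FPKM was 8.43, 13.01 and 10.7 in 7-day libraries, against 4.72, 5.94 and 5.11 in 3-day libraries. The ratio of Cnp to Mog was 2.53, 4.46 and 3.36 at 7 days, against 1.25, 1.07 and 1.02 at 3 days, again with no overlap. Mbp to Mobp gave overlapping ratios of 1.10 to 1.33 at 7 days and 0.860 to 1.57 at 3 days. These pairs were picked after their values were seen, Mog and Cnp for their large and small decreases, so the shift in their ratios follows from that choice and carries no test.

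The other sheath transcripts were less abundant. Mag, the adhesion protein of the innermost wrap facing the axon, measured 3.64, 4.35 and 3.79 FPKM at 7 days, against 7.39, 22.5 and 10.1 FPKM at 3 days (log2 -1.40 ± 0.35; adjusted p = 0.0179). Cldn11, the claudin that forms the tight junctions between myelin layers, measured 3.99, 5.17 and 6.58 FPKM at 7 days, against 13.7, 30.988 and 18.2 FPKM at 3 days (log2 -1.76 ± 0.29; adjusted p = 0.00406). Both were separated between the times, and Mag lost its call without 7-day replicate 1 (adjusted p = 0.0538) or replicate 3 (adjusted p = 0.0554). Mal, a proteolipid of membrane rafts, averaged 8.46 ± 0.862 FPKM at 7 days, against 23.8 ± 12.8 FPKM at 3 days (SD; n = 3 each), a 2.81-fold fall. Gjc3, a connexin, averaged 1.56 ± 0.203 FPKM at 7 days and 7.04 ± 1.82 FPKM at 3 days, and Ermn, a cytoskeletal protein of mature oligodendrocytes, 3.61 ± 0.0760 FPKM at 7 days and 12.5 ± 5.26 FPKM at 3 days. The remaining members, the raft proteolipid Pllp, the sialylated membrane protein Opalin and the tetraspanin Tspan2, fell between 3.26-fold (Opalin) and 3.79-fold (Tspan2) in mean. Tspan2 was the lowest sheath transcript, at 0.280 ± 0.0875 FPKM at 7 days and 1.06 ± 0.221 FPKM at 3 days. The calls of Mal, Pllp, Opalin and Tspan2 were each lost without some single library, with adjusted p up to 0.0978 (Pllp without 7-day replicate 2). With quantile normalization Tspan2 (adjusted p = 0.581), Opalin (0.0854) and Pllp (0.0651) were not called.

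Windows at 4 sheath genes show the sequence around the starts of transcripts that fell together. They were chosen because Mag, Opalin and Cnp hold both ACAAAG, letters bound by SOX factors, and CTGGCAC, letters bound by Myrf, and because Mobp holds the most copies of ACAAAG. Each runs from 250 bases before to 50 bases after a start in RefSeq's GRCm38.p6 annotation, 5′ to 3′ on the gene's strand. Matches to these letters on either strand are in capitals. In the Opalin window the CTGGCAC match and the later ACAAAG match lie in the 50 bases after the start.
Mobp (chr9:120149492-120149791, plus strand): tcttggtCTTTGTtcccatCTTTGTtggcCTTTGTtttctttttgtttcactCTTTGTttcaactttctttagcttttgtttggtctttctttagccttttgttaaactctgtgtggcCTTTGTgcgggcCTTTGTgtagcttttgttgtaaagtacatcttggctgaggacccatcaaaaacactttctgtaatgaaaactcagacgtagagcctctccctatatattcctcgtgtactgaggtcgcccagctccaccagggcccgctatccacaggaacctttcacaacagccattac
Mag (chr7:30914814-30915113, minus strand): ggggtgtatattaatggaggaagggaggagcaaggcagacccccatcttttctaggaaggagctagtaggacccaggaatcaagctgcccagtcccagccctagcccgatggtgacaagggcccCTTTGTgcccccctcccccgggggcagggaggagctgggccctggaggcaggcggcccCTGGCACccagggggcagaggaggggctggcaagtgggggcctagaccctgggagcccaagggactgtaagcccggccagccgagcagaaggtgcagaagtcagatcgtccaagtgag
Opalin (chr19:41077064-41077363, minus strand): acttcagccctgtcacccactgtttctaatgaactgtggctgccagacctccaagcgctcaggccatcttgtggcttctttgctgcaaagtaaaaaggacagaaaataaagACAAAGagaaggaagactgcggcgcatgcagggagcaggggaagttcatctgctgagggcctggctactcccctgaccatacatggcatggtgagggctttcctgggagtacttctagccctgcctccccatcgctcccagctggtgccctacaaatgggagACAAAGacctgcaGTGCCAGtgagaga
Cnp (chr11:100574689-100574988, plus strand): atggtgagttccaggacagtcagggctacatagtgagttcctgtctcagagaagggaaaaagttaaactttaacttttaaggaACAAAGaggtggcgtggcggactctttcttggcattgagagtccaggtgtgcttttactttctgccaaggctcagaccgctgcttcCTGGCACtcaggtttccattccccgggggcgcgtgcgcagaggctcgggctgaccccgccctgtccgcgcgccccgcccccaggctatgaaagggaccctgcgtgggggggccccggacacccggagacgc

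Windows were found for 20 of the 31 members. ACAAAG was present in 6 of the 20 (30.0%) and in 18.7% of 27025 windows of all genes, counting the first window of each symbol and both strands. CTGGCAC was present in 3 of the 20 (15%), against 4.995% of all windows, and both together in 3, against 0.977%. Mobp held 6 copies of ACAAAG in its 300 bases. Of the other letters searched, the SOX variant ACAATG was in 3 of the 20 (15%; 12.8% of all windows). The E-box CAGATG, a form bound by basic helix-loop-helix factors such as Olig2, was in 9 (45.0%; 17.2% of all), and the E-box CAGCTG in 4 (20.0%; 16.1% of all). No matches of different motifs overlapped in the members' windows. Qdpr and Ptgds, which were not called lower, were among the windows with CAGATG, and Ptgds among those with ACAAAG. These counts describe letters in the windows and were not tested.

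Enzymes of myelin lipids were lower in 2 of 3 members. Ugt8a makes galactosylceramide, the most characteristic myelin lipid. It measured 5.01, 6.12 and 5.17 FPKM at 7 days, against 13.2, 39.4 and 18.8 FPKM at 3 days (log2 -1.81 ± 0.35; adjusted p = 0.00702; chromosome 3, 125859773 to 125938560). Aspa, which splits N-acetylaspartate and so supplies acetate for lipid synthesis, measured 8.43, 13.99 and 13.1 FPKM at 7 days, against 20.7, 46.5 and 24.8 FPKM at 3 days (log2 -1.25 ± 0.31; adjusted p = 0.0177; 0.0560 without 7-day replicate 1). The times did not overlap for either gene. Fa2h adds the hydroxyl group to the fatty acids of these lipids. It is listed at 0.456, 0.301 and 0.278 FPKM at 7 days, against 0, 5.65 and 1.30 FPKM at 3 days, so the groups overlapped and it was not called (adjusted p = 0.266). Without 3-day replicate 1, the library listed at 0, its adjusted p was 0.0372; the authors' deposited table gives it a q-value of 0.0154.

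The 5 lineage transcription factors all fell, from low levels. Myrf, the factor of mature sheath genes, measured 1.76, 1.16 and 1.73 FPKM at 7 days, against 7.45, 13.3 and 7.61 FPKM at 3 days (log2 -1.999 ± 0.24; adjusted p = 0.00123; chromosome 19, 10204185 to 10240727). Olig1 and Olig2, neighbouring bHLH factors of the whole lineage, both dropped below 1 FPKM. Olig1 measured 0.459, 0.486 and 0.525 FPKM at 7 days, against 2.07, 3.82 and 2.49 FPKM at 3 days, a 5.71-fold fall (adjusted p = 0.00312). Olig2 measured 0.609, 0.513 and 0.599 FPKM at 7 days, against 1.70, 3.69 and 2.61 FPKM at 3 days, a 4.65-fold fall (adjusted p = 0.00667). Sox10, which is also expressed in Schwann cells, averaged 0.576 ± 0.187 FPKM at 7 days and 2.79 ± 1.61 FPKM at 3 days, a 4.85-fold fall (adjusted p = 0.0195). Nkx6-2, a homeodomain factor of maturing oligodendrocytes, averaged 0.367 ± 0.0578 FPKM at 7 days and 1.85 ± 0.981 FPKM at 3 days, a 5.05-fold fall (adjusted p = 0.0230). Sox10 and Nkx6-2 lost their calls without some single libraries (adjusted p up to 0.0636 for Sox10 and 0.0727 for Nkx6-2) and with quantile normalization (0.101 for Sox10 and 0.173 for Nkx6-2). At these levels the fitted log2 changes of FPKM + 1, from -1.002 for Nkx6-2 to -1.999 for Myrf, understate the folds of the means.

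**Figure D3:**
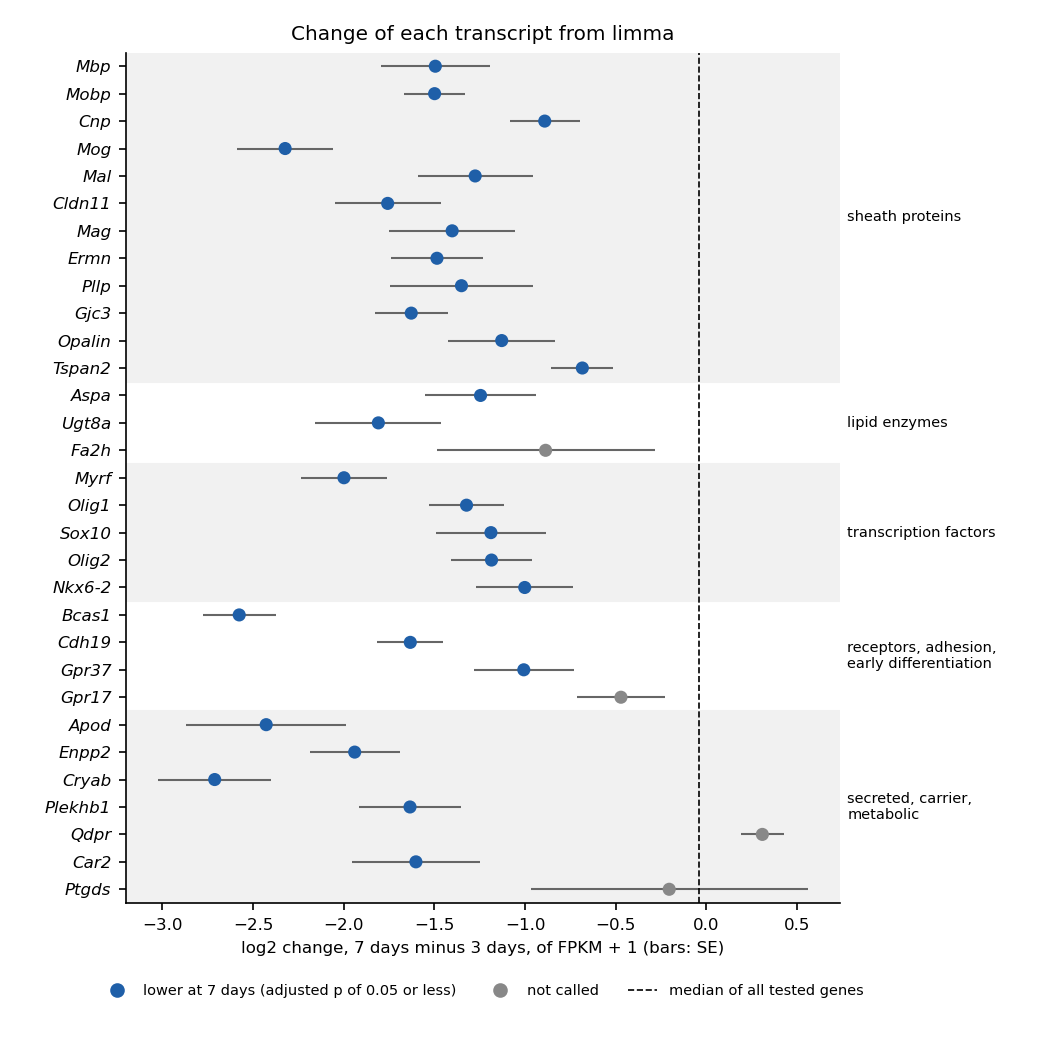
Fitted log2 change (7 days minus 3 days, of FPKM + 1) of each transcript with its SE, grouped by role and ordered by 3-day mean; blue points were called lower, grey points were not called, and the dashed line is the median of all tested genes (-0.04). Most points lie between -1 and -2; Cryab (-2.71), Bcas1 (-2.58) and Apod (-2.43) lie lowest, and Qdpr (0.31) is the only point above 0.

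Among membrane receptors, adhesion and early differentiation genes, 3 of 4 fell. Bcas1, which marks oligodendrocytes that are beginning to myelinate, had the smallest adjusted p of the whole set. It measured 8.35, 7.41 and 10.5 FPKM at 7 days, against 44.5, 74.2 and 55.2 FPKM at 3 days, a 6.62-fold fall (log2 -2.58 ± 0.20; adjusted p = 3.38e-04; chromosome 2, 170343653 to 170406694). Cdh19, a cadherin best known from Schwann and satellite glia, measured 0.975, 0.879 and 1.06 FPKM at 7 days, against 5.32, 6.24 and 3.99 FPKM at 3 days (log2 -1.63 ± 0.18; adjusted p = 0.00103). Gpr37, an orphan receptor of maturing oligodendrocytes, averaged 1.06 ± 0.0491 FPKM at 7 days and 3.35 ± 1.77 FPKM at 3 days (adjusted p = 0.0249), a call lost without any one of the 7-day libraries (adjusted p up to 0.0693) or with quantile normalization (0.148). Gpr17, a receptor of progenitors that are committed to differentiate, was not called. Its levels were 1.40, 0.808 and 1.75 FPKM at 7 days, against 1.84, 3.14 and 1.70 FPKM at 3 days (log2 -0.47 ± 0.24; adjusted p = 0.155), and the groups overlapped. The ratio of Gpr17 to Sox10 was 3.28, 1.57 and 2.22 at 7 days, against 1.27, 0.687 and 0.721 at 3 days, chosen after the values were seen. In the authors' deposited table Gpr17 has a q-value of 0.00335.

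Of the secreted, carrier and metabolic proteins, which other cells also make, 5 of 7 fell. Cryab, a small heat shock protein abundant in oligodendrocytes and stressed glia, had the largest decrease of the set. It measured 3.66, 4.61 and 5.03 FPKM at 7 days, against 19.9, 48.7 and 41.7 FPKM at 3 days, an 8.29-fold fall (log2 -2.71 ± 0.31; adjusted p = 0.00109; chromosome 9, 50751255 to 50757196). Apod, a lipocalin that carries lipids and is made by glia and by fibroblasts of the meninges, had the highest 3-day mean of the 31, through replicate 2; in 3-day replicates 1 and 3 Mbp was higher. Apod measured 28.7, 39.7 and 32.3 FPKM at 7 days, against 102, 395 and 154 FPKM at 3 days (log2 -2.43 ± 0.44; adjusted p = 0.00562; chromosome 16, 31295819 to 31318435). Apod held 10.2%, 14.4% and 10.3% of the summed FPKM of the members at 7 days, against 15.8%, 25.8% and 18.02% at 3 days. Enpp2, the secreted enzyme autotaxin that makes lysophosphatidic acid, averaged 9.96 ± 1.16 FPKM at 7 days and 42.8 ± 16.4 FPKM at 3 days (adjusted p = 0.00156). Plekhb1, a membrane-bound protein with a PH domain, averaged 10.4 ± 1.81 FPKM at 7 days and 36.0 ± 15.6 FPKM at 3 days (adjusted p = 0.00474). Car2, the carbonic anhydrase of oligodendrocytes and red cells, averaged 5.04 ± 1.53 FPKM at 7 days and 18.4 ± 9.75 FPKM at 3 days (adjusted p = 0.0114).

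Qdpr and Ptgds, from the same role group, did not follow the rest. Qdpr recycles tetrahydrobiopterin and is expressed in many tissues. It measured 23.9, 26.4 and 25.6 FPKM at 7 days, against 18.1, 23.5 and 19.4 FPKM at 3 days; the 7-day libraries lay just above all 3-day ones, and it was not called (log2 0.31 ± 0.12; adjusted p = 0.0771; chromosome 5, 45433861 to 45450221). The ratio of Qdpr to Mbp was 0.413, 0.495 and 0.416 at 7 days, against 0.174, 0.0882 and 0.123 at 3 days, chosen after the values were seen. Ptgds, the prostaglandin D synthase of oligodendrocytes and meninges, had overlapping times. It measured 17.8, 3.65 and 14.6 FPKM at 7 days, against 5.48, 38.2 and 7.22 FPKM at 3 days (log2 -0.20 ± 0.76; adjusted p = 0.842). Its direction turned without 3-day replicate 2 (log2 0.60) or 7-day replicate 2 (log2 0.42).

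The 31 transcripts together summed to 281, 276 and 314 FPKM at 7 days, against 642, 1528 and 853 FPKM at 3 days. This was a 3.47-fold lower mean sum at 7 days, and 2.57-fold lower without 3-day replicate 2. They made up 0.0732%, 0.0681% and 0.0780% of the summed FPKM of all tested genes at 7 days, against 0.193%, 0.452% and 0.207% at 3 days. Markers of neurons, astrocytes and endothelial cells moved with them, where 20.3% of all tested genes were called lower. Of 11 neuron markers 11 were lower, led by Rbfox3, Stmn2, Tubb3 and Snap25, with a summed level of 55.6 to 70.4 FPKM at 7 days and 176 to 397 FPKM at 3 days. Of 10 astrocyte markers 6 were lower, led by Slc1a2, Gja1, Gfap and Sox9, with a sum of 119 to 148 FPKM at 7 days and 223 to 622 FPKM at 3 days. Among 8 tested endothelial markers 6 were lower, led by Tek, Esam and Cdh5, and 1, Flt1, was higher, with a sum of 26.8 to 31.6 FPKM at 7 days and 43.5 to 70.7 FPKM at 3 days. All these markers were above 0 in all libraries, the 3-day sums of all 3 lists were highest in replicate 2, and their part in the result was not tested. Fibroblast and pericyte markers, given further below, had sums that overlapped between the times. Of 7 tested macrophage markers 4 were higher (Cybb, Mertk, Aif1 and Csf1r) and 2 lower (Cd14 and Fcgr1). Over all tested genes, 18.8% were called higher. The macrophage sum was 1803 to 1972 FPKM at 7 days and 1321 to 1545 FPKM at 3 days. Cd68, Adgre1 and Mrc1 of the macrophage list had no row, and Emr1 and Lyz2 were set aside; Lyz2, whose locus drives the Cre, is listed at 0 in 7-day replicate 3 beside 9435 and 5862 FPKM in the other 7-day libraries. Rpl22, which the RiboTag method tags, averaged 45.3 ± 4.94 FPKM at 7 days and 47.2 ± 6.13 FPKM at 3 days (adjusted p = 0.739).

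Set against the other neural lists, the summed level of the 31 transcripts was 3.996 to 5.16 times that of the neuron markers at 7 days and 3.65 to 4.62 times at 3 days, so these ratios overlapped. Relative to the astrocyte sum it was 2.12 to 2.33 at 7 days and 2.46 to 3.06 at 3 days, without overlap. Relative to the macrophage sum it was 0.140 to 0.174 at 7 days and 0.486 to 1.12 at 3 days. Relative to the sum of 31 tested further oligodendrocyte and myelin genes, given below, it was 0.808 to 0.968 at 7 days. At 3 days it was 2.07 to 2.71. In that further list Cers2 (means of 111 FPKM at 7 days and 92.2 FPKM at 3 days) and Evi2a (73.4 and 47.4 FPKM) were highest. Neither was called lower, while the median log2 change of that list was -1.06. These ratios of sums were not tested.

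**Figure D4:**
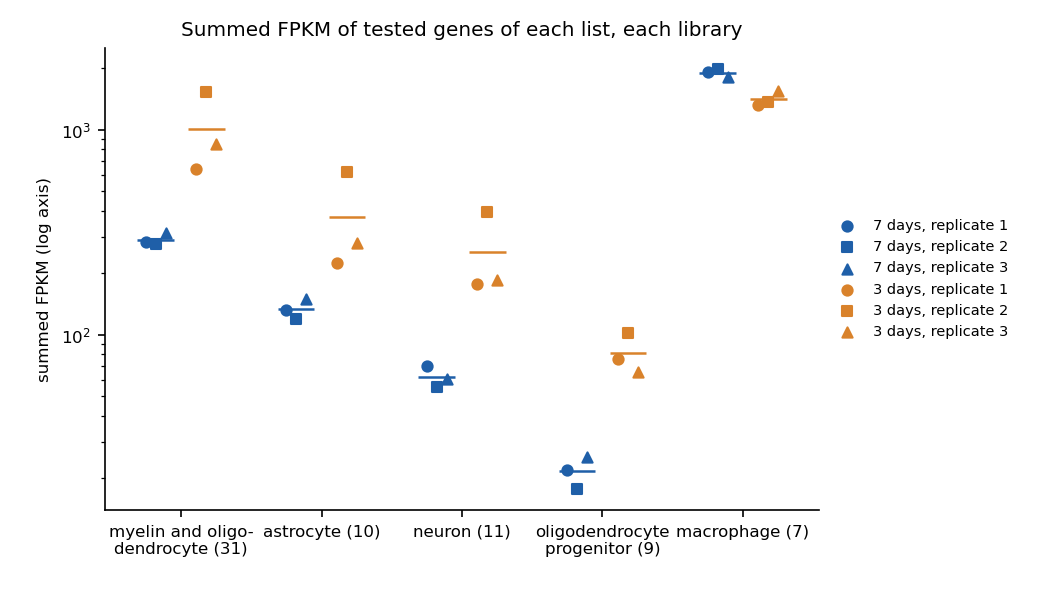
Summed FPKM (log axis) of the tested genes of 5 lists in each library; blue marks are 7 days, orange marks 3 days, horizontal lines the means, and the number of genes stands beside each list name. The neural lists drawn are lower in all 7-day libraries, with 3-day replicate 2 (orange squares) on top. The macrophage list is higher in all 7-day libraries. The list of further oligodendrocyte and myelin genes, whose sums overlapped between the times, is not drawn.

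Related genes outside the 31 were counted from lists of known markers. Of 35 further oligodendrocyte and myelin genes, 31 were tested. Of these, 20 were lower, 1 was higher and 10 were not called, with a median log2 change of -1.06. Over all tested genes, 20.3% were called lower and 18.8% higher. Hapln2, a link protein of the nodes of Ranvier, averaged 0.461 ± 0.160 FPKM at 7 days and 4.38 ± 1.26 FPKM at 3 days (adjusted p = 0.00109). Cmtm5, a membrane protein of the sheath, averaged 3.52 ± 1.27 FPKM at 7 days and 20.2 ± 13.5 FPKM at 3 days (adjusted p = 0.00862), and the protease Klk6 4.23 ± 0.908 FPKM at 7 days and 22.6 ± 21.996 FPKM at 3 days (adjusted p = 0.0454). The junction protein Jam3 averaged 1.66 ± 0.703 FPKM at 7 days and 8.29 ± 2.19 FPKM at 3 days (adjusted p = 0.00191). Evi2a, a membrane protein, was the gene that was higher, at 73.4 ± 1.79 FPKM at 7 days and 47.4 ± 7.24 FPKM at 3 days. Progenitor markers fell too: 7 of 9 tested were lower and 2 were not called, with a median log2 change of -1.10. Pdgfra, among those lower, is also counted with the fibroblast and pericyte markers. Vcan, a matrix proteoglycan also made by other cells, averaged 4.59 ± 1.008 FPKM at 7 days and 25.2 ± 5.13 FPKM at 3 days (adjusted p = 5.24e-04), and the phosphatase Ptprz1 6.71 ± 0.927 FPKM at 7 days and 28.2 ± 11.4 FPKM at 3 days (adjusted p = 0.00253). Sox6 averaged 1.26 ± 0.271 FPKM at 7 days and 5.93 ± 1.42 FPKM at 3 days (adjusted p = 0.00134), and Lhfpl3 0.925 ± 0.960 FPKM at 7 days and 3.15 ± 1.24 FPKM at 3 days (adjusted p = 0.0459), with times that overlapped for Lhfpl3.

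Only 5 of the 31 (Mbp, Cnp, Mag, Aspa and Qdpr) are in the authors' filtered table, which holds 9489 of the tested genes. Of the tested genes that it leaves out, 36.0% were lower at 7 days, against 14.4% of those it keeps. Every 7-day library lay below every 3-day library for 49.99% of those left out and 20.6% of those kept. For 6 of the 31, the deposited locus carries the symbol of a second gene, and the counting could split or share their reads. Those neighbours were Dnajc7 with Cnp, Arl2bp with Pllp, Inpp5a with Nkx6-2, Tmem258 with Myrf, Hspb2 with Cryab and Rab6a with Plekhb1. Inpp5a was the neighbour that was called lower, at 0.0212 ± 0.0219 FPKM at 7 days and 0.504 ± 0.0544 FPKM at 3 days (adjusted p = 0.0283). Tmem258, an abundant neighbour, averaged 37.5 ± 14.2 FPKM at 7 days, against 30.7 ± 6.48 FPKM at 3 days (adjusted p = 0.482), and Hspb2 0.204 ± 0.204 FPKM at 7 days and 1.42 ± 1.28 FPKM at 3 days (adjusted p = 0.0958). In GENCODE M21, exons of Cnp, Ermn, Tspan2, Pllp, Olig1, Nkx6-2, Gpr17, Bcas1, Enpp2, Qdpr and Cryab overlap exons of a gene on the opposite strand. Whether strand was used in counting is not given in the sources used here, so reads in the overlapping exons may belong to either gene.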

How the data were processed

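Gene tables were deposited by the authors in an unfiltered and a filtered form. Per the file headers, both hold FPKM for each gene and library, the authors' mean FPKM per time, and, from the authors' own test, a log2 fold change, a test score, and p-values with q-values. Cuffdiff 2.2.1, Cufflinks 2.2, TopHat2 2.0.12 and mm10 are named, per the submitters' processing notes, without role or order. Per the labels' protocols, libraries were made with the ScriptSeq v2 kit. How libraries were scaled, how the filtered table was made and whether strand was used in counting are not given in the sources used here.

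Of 13960 rows, 918 were set aside, none of them of the 31 transcripts: 45 not marked OK by the authors' test, 838 whose library values average over 1% away from the authors' mean, 14 at 0 in a library and at 100 FPKM or more elsewhere, and 32 with repeated symbols, in classes that overlap. The other 13042 genes were fitted as log2(FPKM + 1) with limma 3.58.1 (R 4.3.3) with a mean-dependent prior variance, 7 days minus 3 days, two-sided. P-values were adjusted over all 13042 genes by Benjamini-Hochberg. Means and SD are of FPKM over 3 libraries. The fit was tested on simulated data with independent normal values of equal spread at both times. Those data held no outlying library like 3-day replicate 2, so the simulation does not cover that case. Reads cannot be recovered from FPKM, so depth is unknown and no counting interval is given. Alternatives were a pseudocount of 0.1, a filter at a mean of 1 FPKM, quantile normalization, median centring, a constant prior variance, a replicate block, each library left out, no row set aside, and the filtered table.

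The members, gene lists and tests were chosen with earlier results of these data known. From each other list, the text names up to 4 called genes, those of largest log2 change whose higher group averaged at least 1 FPKM, with Rpl22 and Lyz2; others named were chosen after their values were seen, and a few genes of these lists are not reported here. Fibroblast and pericyte markers were lower in 4 of 6 tested (Dcn, Pdgfra, Rgs5 and Pdgfrb), against 20.3% of all tested genes. Their sums overlapped between the times, at 109, 99.1 and 180 FPKM at 7 days and 105, 264 and 139 FPKM at 3 days. Col1a1 and Col1a2 were not called. Promoter windows are RefSeq's, matched by symbol. Gene positions (mm10) are those in the authors' table, which does not state whether starts count from 0 or 1. Python 3.11.15, numpy 2.4.6, pandas 2.3.3 and matplotlib 3.10.9 were used.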

Additional observations from a re-analysis of the deposited data

How the results depend on the processing

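Of the 27 transcripts called lower, 18 kept their call and direction under every one of the alternatives they could be fitted in, and 9 lost the call in at least 1 while keeping their direction (Mag, Mal, Opalin, Tspan2, Pllp, Aspa, Sox10, Nkx6-2 and Gpr37). The number called lower was 27 with a pseudocount of 0.1, median centring, a constant prior variance or no row set aside, 26 with the filter at 1 FPKM, and 21 with quantile normalization. Over all tested genes, quantile normalization gave 1809 lower and 2317 higher, against 2645 and 2453 without it, so the balance of directions turned; the filter gave 2172 and 2486. With the filtered table, which holds 5 of the 31, 4 were lower, and over all its genes 1419. Leaving out 1 library at a time gave 20 to 28 lower and 0 to 1 higher, the 1 being Qdpr without 3-day replicate 2. Over all tested genes, leaving out 1 library gave 1697 to 2565 lower and 1572 to 2207 higher, both lowest without 7-day replicate 2. Gpr17 turned to a log2 change of 0.039 with quantile normalization, and Ptgds to 0.60 without 3-day replicate 2 and 0.42 without 7-day replicate 2, in a range from -0.70 to 0.60 over single libraries left out; the cause was not tested. The median log2 change of the 31 lay between -1.72 (pseudocount of 0.1) and -1.14 (without 3-day replicate 2).

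With the replicate number as a block, 27 transcripts were lower and 0 higher, and over all genes 2425 and 2450. Deviations of same-numbered libraries from their group means correlated across genes with r of 0.12, 0.01 and 0.01, and not every library correlated best with its own number, so the numbers were not taken to pair the libraries. Depth limits most the transcripts under 1 FPKM at 7 days, whose number of reads is unknown.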

Other observations

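Genes tied to the breakdown of lipids of the kind found in myelin, mostly lysosomal enzymes, were listed beside the myelin genes. Of 11 tested members 9 were higher at 7 days and 2 were not called, against 18.8% of all tested genes called higher, with a median log2 change of 1.13. Galc, which removes galactose from galactosylceramide, the lipid that Ugt8a makes, averaged 75.5 ± 4.70 FPKM at 7 days and 32.3 ± 1.47 FPKM at 3 days (adjusted p = 3.20e-04, limma). Hexa, which takes part in ganglioside breakdown, averaged 1076 ± 32.8 FPKM at 7 days and 326 ± 39.4 FPKM at 3 days. The beta-galactosidase Glb1 averaged 96.2 ± 2.07 FPKM at 7 days and 34.9 ± 6.17 FPKM at 3 days, and the acid lipase Lipa 561 ± 35.2 FPKM at 7 days and 233 ± 33.0 FPKM at 3 days. Psap is listed at 0 in all 7-day libraries and was set aside.

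Schwann cells, which myelinate peripheral nerves, were represented by 7 tested markers, of which 1 was lower, 1 was higher and 5 were not called. Over all tested genes, 20.3% were called lower and 18.8% higher. S100b, which was not called, was also on the astrocyte list. Egr2, the factor of peripheral myelin genes that is also induced in macrophages, averaged 4.21 ± 1.17 FPKM at 7 days and 1.56 ± 0.228 FPKM at 3 days (adjusted p = 0.00791, limma). Pmp22, which many cells express, averaged 20.97 ± 1.47 FPKM at 7 days and 21.1 ± 5.41 FPKM at 3 days.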
